A study of Homo sapiens with 9 samples.

Results

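Collagen RNA was measured in MDA-MB-231 cells, a human triple-negative breast cancer line, after knockdown of UGDH, which makes UDP-glucuronic acid from UDP-glucose. Collagen genes were taken as the entries of the gene count table whose symbol is COL, a type number, A and a chain number, and 44 of 23710 entries matched. Of these, 26 held 30 or more counts summed over the 9 libraries and are described below. The 3 lowest of them were COL4A3 with 37 counts and COL8A2 and COL24A1 with 54 each, and the nearest genes below the limit were COL3A1 with 19 and COL9A3 with 15. A further 7 genes held 1 to 8 counts (COL10A1, COL11A1, COL20A1, COL21A1, COL23A1, COL26A1 and COL28A1). The remaining 9 held 0 of 109309381 counts, which allows up to 0.0274 CPM for each (CPM is a gene's count scaled to a common library size, as given below; COL2A1, COL5A3, COL6A5, COL6A6, COL9A1, COL14A1, COL19A1, COL22A1 and COL25A1); this limit covers counting error only.

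The design had 3 groups of 3 libraries. Every culture carried a lentiviral pGIPZ vector: shNT with a non-targeting hairpin, shUGDH-1 with a first hairpin against UGDH, and shUGDH-2 with an independent second hairpin against the same gene. All groups are the same cell line grown in serum-containing DMEM. Groups were taken from the sample titles; the hairpin sequence listed with each sample is the same within a group and differs between groups, but the hairpin tag of the knockdown samples also carries the name shNT. The labels do not say whether the cells were pools or clones. The labels call the libraries biological replicates but do not say whether each came from its own transduction. Each p-value therefore reflects only the spread among these libraries, which may be partly technical. The fit estimates that spread with information shared across genes. Between libraries of a group, the variance was 1.19 to 1.87 times that of counting error alone (chi-square per degree of freedom). Because bulk RNA was sequenced, a change in the number of cells that express a gene and a change in RNA per cell cannot be told apart.

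Collagens are secreted or membrane-bound proteins in which chains wind into a triple helix, and each type is built from 1 or more kinds of chain. Fibrillar collagens such as types I and V form cables in connective tissue, type IV forms the sheet-like network of basement membranes, and other families link, decorate or anchor these structures. Chains are hydroxylated and folded in the endoplasmic reticulum, exported in large carriers, trimmed outside the cell, cross-linked, and later bound by receptors or degraded. In tumours much of the fibrillar collagen is usually made by stromal fibroblasts, while carcinoma cells also make collagens of their own.

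Libraries held 9249738 to 13328002 counts, and collagens took 0.209% of all counts. UGDH, the targeted gene, had 690, 654 and 590 counts in shNT, 99, 97 and 74 in shUGDH-1, and 96, 86 and 84 in shUGDH-2. Its level fell by 2.80 on the log2 scale with shUGDH-1 (edgeR quasi-likelihood test, Benjamini-Hochberg adjusted p = 3.9e-36) and by 2.89 with shUGDH-2 (adjusted p = 1.2e-36). All 6 genes listed as defining for the line were detected. They summed to 7726.5 to 7858.2 CPM in shNT, 8188.6 to 8252.5 in shUGDH-1 and 7730.7 to 7873.8 in shUGDH-2. With shUGDH-1, 4 of the 6 were higher and 0 lower (10.5% and 10.3% of all genes). With shUGDH-2, 2 were higher and 1 lower (8.04% and 6.81% of all genes). Of 6 genes listed as low or absent in it, ESR1 had 1 count and PGR had 0. The others were detected, with ERBB2, GATA3, EPCAM and CDH1 at 117, 37.5, 8.35 and 0.221 CPM in shNT. This list summed to 157 to 167 CPM in shNT, 176 to 181 in shUGDH-1 and 176 to 187 in shUGDH-2. Of 3 tested, 2 were higher with each hairpin (10.5% and 8.04% of all genes). Of 12 fibroblast markers, DCN, LUM, DPT, ASPN and TCF21 had 0 counts, and the list summed to 22.4 to 25.5 CPM in shNT, 23.9 to 26.6 in shUGDH-1 and 24.9 to 27.2 in shUGDH-2. PDGFRB supplied most of that sum, with means of 20.1, 20.7 and 22.2 CPM in the same order, and ACTA2 stood at 3.92, 4.21 and 3.69. These were the 2 tested, and neither passed. Of 10 endothelial markers ERG had 0 counts, and the list summed to 29.6 to 35.8, 46.3 to 51.6 and 31.2 to 37.8 CPM in the same order. ESAM, a junction protein gene that endothelial cells share with some other cells, passed as 1 of 2 tested, 1.58-fold higher with shUGDH-1 (edgeR adjusted p = 4.1e-11). Of all genes, 10.5% were higher with that hairpin. The leukocyte markers summed to 97.1 to 104 CPM in shNT, 88.2 to 94.3 in shUGDH-1 and 90.6 to 97.0 in shUGDH-2. CD68 supplied most of that sum, with means of 96.0, 85.5 and 88.2 CPM in the same order, while CD3E had 0 counts and PTPRC 5. Of 3 tested, CD68 was lower with both hairpins and CSF1R with shUGDH-1 (10.3% and 6.81% of all genes were lower with the hairpins in order). CD14, the other tested gene, stood at 1.54, 2.34 and 1.82 CPM and did not pass. The 6 myoepithelial and basal markers summed to 11.8 to 12.9, 13.9 to 18.1 and 11.7 to 16.6 CPM. Of 3 tested, OXTR was higher with shUGDH-1, where 10.5% of all genes were. KRT5 and KRT14 in this list were uneven between libraries of a group. KRT5 had 1, 15 and 7 counts in shUGDH-1 and 25, 3 and 0 in shUGDH-2. KRT14 had 0, 22 and 6 counts in shUGDH-1 and 15, 0 and 0 in shUGDH-2. The part of these markers in the collagen results was not tested.

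The type IV genes lie in head-to-head pairs, so the stretch between the 2 genes is shown for each pair before the values. Each sequence is the plus strand of GRCh38.p14, written 5′ to 3′, and each gap runs between the outermost RefSeq ends of the genes. Capitals mark matches, on either strand, to CCAAT (reverse complement ATTGG) or to the GC box GGGCGG (reverse complement CCGCCC), and no 2 marked matches overlap.
COL4A1 and COL4A2, chr13:110307158-110307283, 126 bases, all of the gap: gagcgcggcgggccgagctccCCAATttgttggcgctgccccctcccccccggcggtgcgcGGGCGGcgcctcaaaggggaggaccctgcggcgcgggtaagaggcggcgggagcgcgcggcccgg
COL4A4 and COL4A3, chr2:227164489-227164623, 135 bases, all of the gap: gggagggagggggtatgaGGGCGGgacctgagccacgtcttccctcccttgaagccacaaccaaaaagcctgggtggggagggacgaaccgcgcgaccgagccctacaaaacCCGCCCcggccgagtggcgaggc
COL4A6 and COL4A5, chrX:108439588-108439837, 250 of the 379 bases of the gap: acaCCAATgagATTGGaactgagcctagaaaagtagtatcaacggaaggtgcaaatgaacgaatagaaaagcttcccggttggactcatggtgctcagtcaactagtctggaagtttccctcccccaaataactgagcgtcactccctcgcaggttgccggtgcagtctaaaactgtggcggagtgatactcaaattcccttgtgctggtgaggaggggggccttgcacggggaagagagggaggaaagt
For COL4A4 the outermost end is not the start site of its RefSeq promoter window, which leaves 418 bases to the start of COL4A3; in the other pairs both ways of counting give the same gap. The first named gene of each pair lies to the left on the minus strand and the second to the right on the plus strand. GC content was 80.2% between COL4A1 and COL4A2, 68.1% between COL4A4 and COL4A3, and 51.2% in the stretch shown between COL4A6 and COL4A5. CCAAT occurred once in the first stretch and not in the second, while the third held 2 matches to it and none to the GC box.

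Levels are given as CPM, the count of a gene per 1000000 counts of the library total after scaling by the trimmed mean of M-values. To compare genes with each other, CPM was divided by the length in kilobases of the main GENCODE transcript. In shNT the highest level per kilobase was that of COL13A1, a transmembrane collagen, at 52.9 ± 0.91 CPM per kilobase (SD, n = 3), followed by COL4A2 at 44.1 ± 0.37, COL12A1 at 39.1 ± 0.37 and COL6A1 at 38.3 ± 0.28. COL18A1, COL5A1, COL6A2, COL7A1, COL8A1 and COL4A1 followed between 29.6 and 12.9. The next gene, COL27A1, stood at 3.48 ± 0.21, so these 10 genes formed the upper part of the order. COL1A1 and COL1A2, the chains of type I, stood far lower at 1.47 ± 0.10 and 1.14 ± 0.044, and COL4A3 was lowest at 0.0203 ± 0.0012. The library ranges of neighbours in the order overlapped for COL4A5 with COL17A1, COL9A2 with COL1A1, COL1A2 with COL16A1, for the run COL11A2, COL5A2, COL15A1 and COL4A4, and for the run COL8A2, COL24A1 and COL4A6. All other neighbours had ranges that did not overlap in shNT. These ranges hold no uncertainty in length, so the order rests on the 1 transcript chosen for each gene. COL4A2, for example, was divided by 6494 bases, while its protein-coding transcripts together cover 15767 exon bases.

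**Figure D1:**
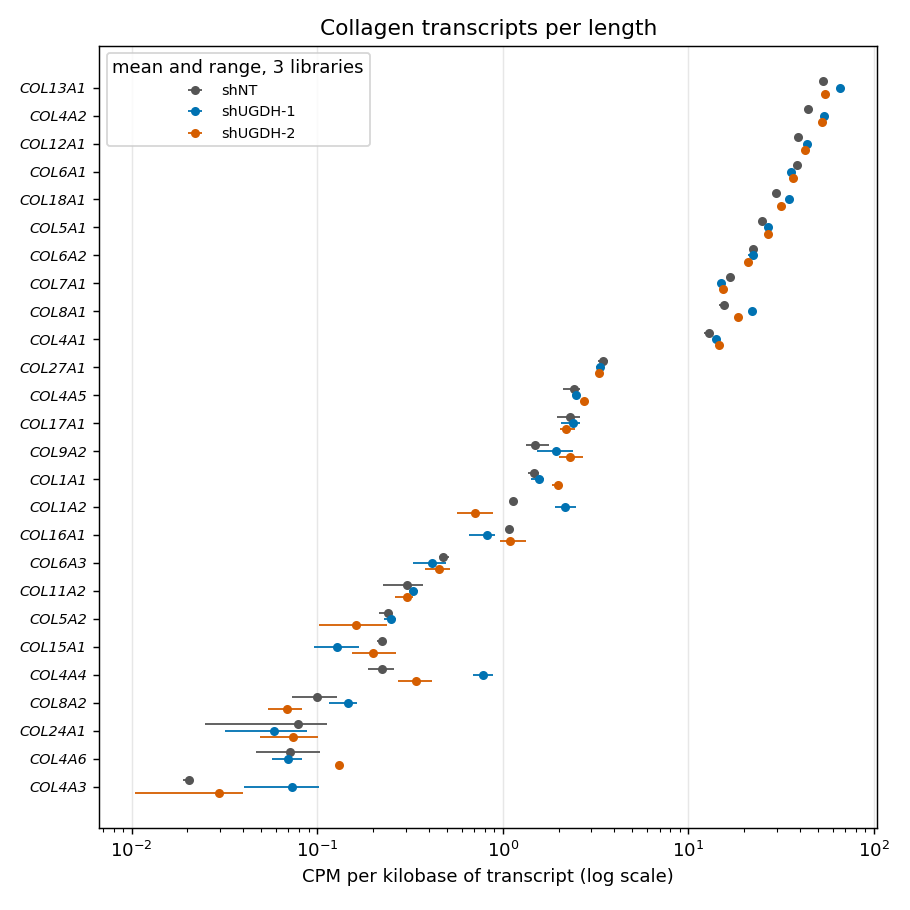
Level of the 26 collagen genes per kilobase of transcript (CPM per kilobase, log axis), ordered by the shNT mean; points are group means, lines span the lowest to the highest of 3 libraries, and colours mark the hairpin groups. COL13A1 is highest in shNT at 52.9 CPM per kilobase and COL4A3 lowest at 0.0203.

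Of the 26 genes, 23 passed the filter on low counts and were tested, and COL4A3, COL8A2 and COL24A1 were not. COL4A6, the lowest gene tested, reached 10 counts in every library of shUGDH-2 only, so its test is not free of that group's level. With shUGDH-1, 9 of 23 collagen genes rose, where 10.5% of all 12546 genes tested did, and 2 fell, where 10.3% did (edgeR quasi-likelihood test, adjusted p under 0.05). With shUGDH-2, 9 again rose, against 8.04% of all genes, and 2 fell, against 6.81%. The risen genes ranged from 1.08-fold to 3.49-fold with shUGDH-1 and from 1.07-fold to 1.52-fold with shUGDH-2. The median log2 change over the 23 genes was 0.11 for the first hairpin and 0.039 for the second, beside -0.0026 and -0.0059 over all genes tested. Leaving out 1 library moved the second median to 0.11 (without shNT replicate 2), 0.091 (without shUGDH-2 replicate 2) or 0.081 (without shUGDH-2 replicate 3).

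Both comparisons use the same 3 shNT libraries, so a shared direction is partly set by those controls. Those that rose with both hairpins were COL4A1, COL4A2, COL4A4, COL5A1, COL8A1, COL12A1 and COL18A1, 7 of 23 where 4.72% of all genes did so. Leaving out 1 library at a time gave 5 to 7 such collagen genes. COL7A1 alone fell with both, where 3.61% of all genes did so. COL1A2 rose with shUGDH-1 and fell with shUGDH-2. COL13A1 rose and COL6A1 fell past the threshold with shUGDH-1 only, and COL1A1 and COL9A2 rose past it with shUGDH-2 only. The other 10 genes passed in neither comparison. Between the hairpins themselves, 1 collagen gene was higher with shUGDH-2 than with shUGDH-1, where 5.36% of all genes were, and 5 were lower, where 5.51% were.

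**Figure D2:**
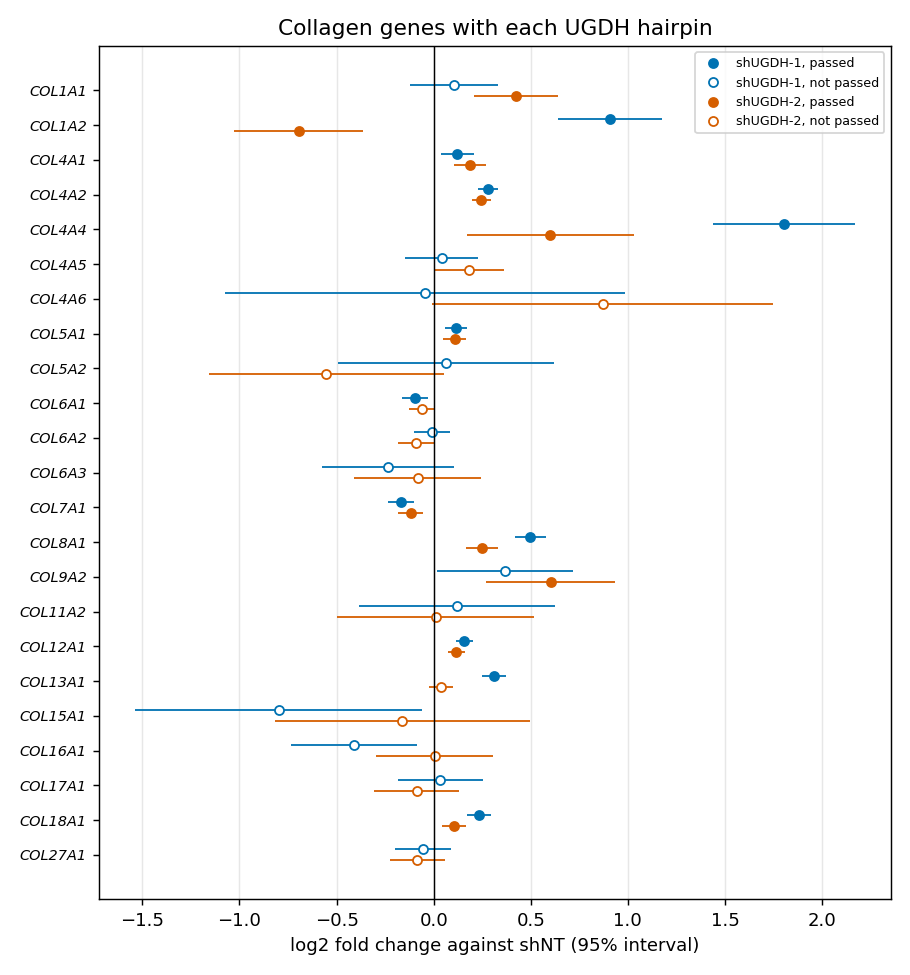
Log2 fold change of the 23 tested collagen genes for shUGDH-1 and shUGDH-2 against shNT, with 95% intervals; filled points passed the test and open points did not. COL4A4 with shUGDH-1 lies farthest right at 1.80, and COL1A2 lies at 0.91 with shUGDH-1 and at -0.70 with shUGDH-2.

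All collagens together summed to 1956 to 1974 CPM in shNT, 2178 to 2210 in shUGDH-1 and 2083 to 2117 in shUGDH-2, and the 3 ranges did not overlap. COL12A1, whose long chain decorates fibrils, supplied the most counts of any member. The type IV sum ran from 385 to 399 CPM in shNT, from 461 to 470 in shUGDH-1 and from 450 to 466 in shUGDH-2. For type VI the sum ran from 243 to 247, from 230 to 242 and from 227 to 241 CPM, with each knockdown library below all shNT libraries.

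Type IV collagen is the core network of basement membranes. Of its 5 tested genes 3 rose with each hairpin, where 10.5% and 8.04% of all genes did, and the other 2 did not pass. COL4A2, the partner of COL4A1 in the most widespread type IV trimer, had 289, 286 and 285 CPM in shNT, 353, 348 and 343 in shUGDH-1, and 345, 344 and 331 in shUGDH-2. All knockdown libraries lay above all shNT libraries, and the hairpin groups overlapped each other. Its level rose 1.21-fold with shUGDH-1 (log2 change 0.28, SE 0.025, edgeR adjusted p = 6.6e-14) and 1.19-fold with shUGDH-2 (0.25, SE 0.025, adjusted p = 1.1e-11).

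COL4A1, on the other side of the GC-rich stretch, had 90.3, 80.2 and 85.4 CPM in shNT, 92.0, 93.0 and 94.0 in shUGDH-1, and 99.7, 94.6 and 97.5 in shUGDH-2. The 3 groups did not overlap, although the highest shNT library came close to shUGDH-1. The rise was 1.09-fold with shUGDH-1 (log2 change 0.12, SE 0.043, edgeR adjusted p = 0.033) and 1.14-fold with shUGDH-2 (0.19, SE 0.042, adjusted p = 0.00098). The shUGDH-1 call did not hold without shNT replicate 2, without shNT replicate 3 or without any 1 of the shUGDH-1 libraries, nor with DESeq2, and its adjusted p ran from 0.0049 to 0.22 over the alternatives. Per kilobase, COL4A2 stood at 3.27 to 3.63 times the level of COL4A1 in shNT, 3.71 to 3.90 times in shUGDH-1 and 3.46 to 3.70 times in shUGDH-2.

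COL4A4, a chain of the type IV network of kidney and other specialised basement membranes, showed the largest rise of any collagen gene tested with shUGDH-1. It had 2.61, 2.21 and 1.87 CPM in shNT, 8.86, 6.92 and 7.81 in shUGDH-1, and 3.29, 4.16 and 2.75 in shUGDH-2. The shUGDH-1 libraries lay well apart from the rest, while the shUGDH-2 libraries lay just above shNT. The rise was 3.49-fold with shUGDH-1 (log2 change 1.80, SE 0.18, edgeR adjusted p = 5.0e-12) and 1.52-fold with shUGDH-2 (0.60, SE 0.22, adjusted p = 0.049). The shUGDH-2 call was lost when any of 6 libraries was left out (shNT replicates 2 and 3, shUGDH-1 replicates 2 and 3, shUGDH-2 replicates 1 and 2) and when only the groups compared were fitted, with adjusted p from 0.027 to 0.29 over the alternatives. The hairpins differed from each other, shUGDH-2 being lower by a log2 difference of -1.20 (SE 0.16, adjusted p = 8.0e-08).

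COL4A3, the head-to-head partner of COL4A4, was close to the limit of detection with 2, 2 and 2 counts in shNT, 8, 11 and 3 in shUGDH-1, and 1, 4 and 4 in shUGDH-2. All shUGDH-1 libraries held more counts than any shNT library. Of its 37 counts 22 lie in shUGDH-1 and 15 in the other groups, so it reached the limit of 30 counts only through the group where it was high, and no test of it is given. RHBDD1, the next gene beyond the pair, had a log2 change of -0.079 with shUGDH-1 and did not pass.

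COL4A5 and COL4A6, which flank the third stretch and encode chains found together in smooth muscle and skin basement membranes, passed in no comparison. COL4A5 had 16.2, 16.7 and 13.6 CPM in shNT, 15.1, 16.7 and 16.2 in shUGDH-1, and 17.9, 17.6 and 17.5 in shUGDH-2. Its log2 change with shUGDH-2 had a 95% interval from 0.0012 to 0.36 before adjustment (edgeR adjusted p = 0.19). COL4A6 stood at 0.471 ± 0.19, 0.460 ± 0.083 and 0.859 ± 0.026 CPM, and its interval with shUGDH-2 ran from -0.0066 to 1.75. It passed the filter on low counts only through shUGDH-2, so no conclusion is drawn from that interval.

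**Figure D3:**
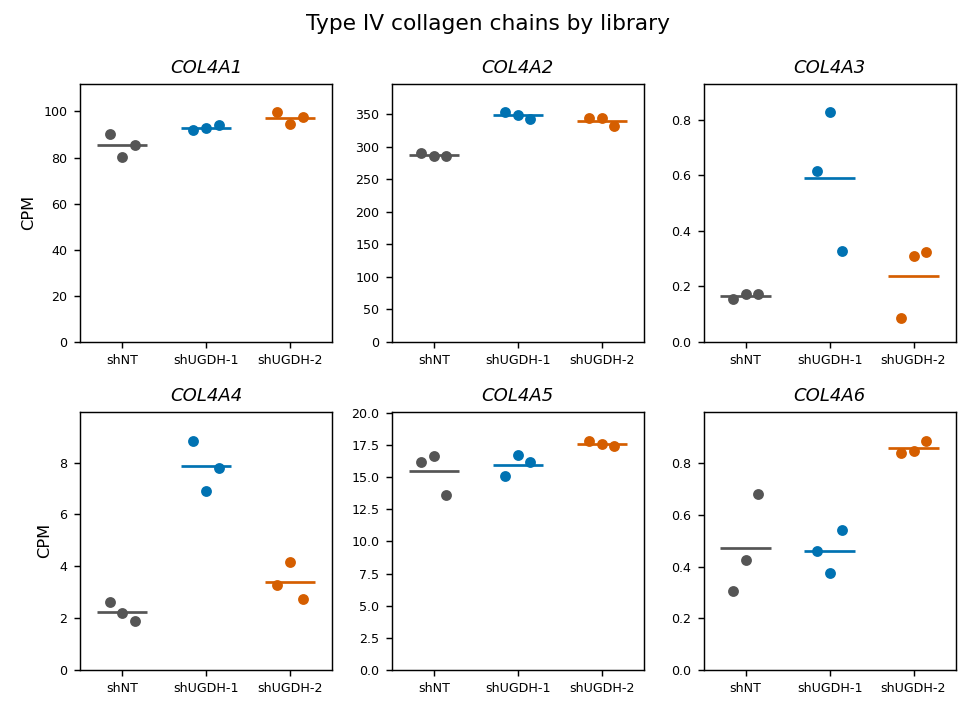
CPM of the type IV genes in each library by hairpin group, with bars at the group means and each panel's axis starting at 0. COL4A4 lies between 6.92 and 8.86 CPM in shUGDH-1 and at or below 4.16 CPM in every other library.

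The fibrillar collagens were mixed. Of 6 tested, 2 were higher in the shUGDH-1 comparison (COL1A2 and COL5A1) and 0 lower, beside 10.5% and 10.3% of all genes. The shUGDH-2 comparison had 2 higher (COL5A1 and COL1A1) and 1 lower (COL1A2), beside 8.04% and 6.81% of all genes. COL1A2, the alpha-2 chain of type I, had 6.45, 6.04 and 6.05 CPM in shNT, 10.3, 11.5 and 13.5 in shUGDH-1, and 4.80, 3.08 and 3.64 in shUGDH-2. The 3 groups did not overlap, with shUGDH-1 above and shUGDH-2 below the control. It rose 1.88-fold with shUGDH-1 (log2 change 0.91, SE 0.13, edgeR adjusted p = 2.4e-07) and changed by -0.70 on the log2 scale with shUGDH-2 (SE 0.17, adjusted p = 0.0019). The direct difference between the hairpins was -1.60 (SE 0.15, adjusted p = 2.8e-13), and no library left out in turn removed any of the 3 calls.

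COL1A1, the alpha-1 chain of type I, had 10.5, 9.18 and 9.97 CPM in shNT, 11.2, 10.9 and 9.55 in shUGDH-1, and 13.9, 12.4 and 13.7 in shUGDH-2. The shUGDH-2 libraries lay above all others, and shUGDH-1 overlapped shNT. It rose 1.34-fold with shUGDH-2 (log2 change 0.42, SE 0.11, edgeR adjusted p = 0.0035), while with shUGDH-1 the log2 change was 0.11 with a 95% interval from -0.12 to 0.33. The difference between the hairpins was 0.32 (SE 0.11, adjusted p = 0.041). That call was lost with DESeq2 and without any 1 of the shUGDH-1 libraries, shUGDH-2 replicate 1 or shUGDH-2 replicate 3, with adjusted p from 0.032 to 0.22.

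Type I collagen is usually assembled from more alpha-1 than alpha-2 chains, so the ratio of the transcripts was computed in each library. COL1A1 per kilobase was 1.31, 1.22 and 1.33 times COL1A2 in shNT, 0.876, 0.762 and 0.571 times in shUGDH-1, and 2.33, 3.24 and 3.02 times in shUGDH-2. The groups did not overlap. COL1A2 transcripts thus outnumbered COL1A1 transcripts on this scale in the shUGDH-1 libraries and in no other library.

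**Figure D4:**
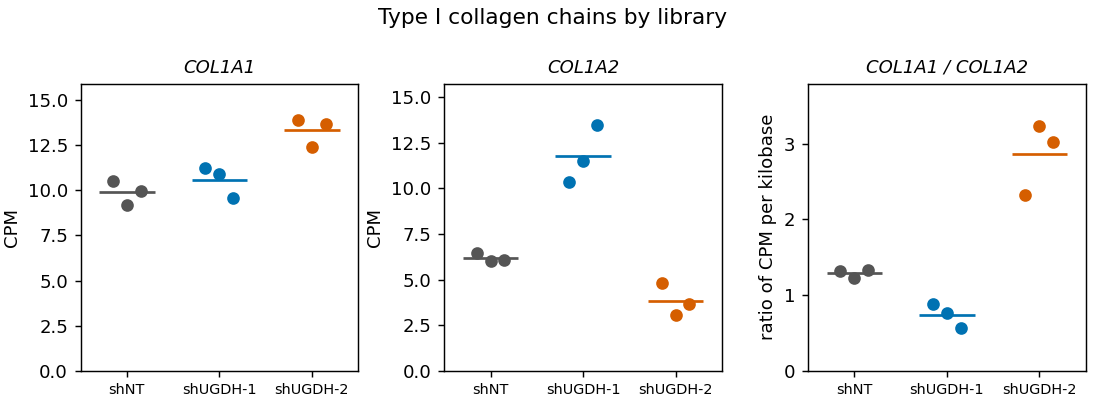
CPM of COL1A1 and COL1A2 and the ratio of their CPM per kilobase in each library, with bars at the group means. The ratio lies at 1.22 to 1.33 in shNT, 0.571 to 0.876 in shUGDH-1 and 2.33 to 3.24 in shUGDH-2.

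COL5A1, a chain of type V that regulates the start of fibril growth, had 209, 210 and 212 CPM in shNT, 228, 222 and 234 in shUGDH-1, and 227, 230 and 222 in shUGDH-2. Every knockdown library exceeded every shNT library. The rise was 1.08-fold with each hairpin (log2 change 0.11 in both, SE 0.029 and 0.028, edgeR adjusted p = 0.0021 and 0.0055). COL5A2, its partner chain, stood at 1.70 ± 0.14 CPM in shNT, 1.76 ± 0.13 in shUGDH-1 and 1.14 ± 0.50 in shUGDH-2 and did not pass. Per kilobase, COL5A1 exceeded COL5A2 by 98.3 to 116 times in shNT, 98.7 to 120 times in shUGDH-1 and 114 to 255 times in shUGDH-2, and the 3 ranges overlapped. COL11A2 and COL27A1, the other fibrillar members tested, had log2 changes against shNT from -0.083 to 0.12 and passed in no comparison, and COL24A1 had 2 to 10 counts per library.

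The 3 tested genes of type VI, which forms beaded filaments around cells, had negative log2 changes with both hairpins. Of all 12546 genes tested, 6168 and 6036 had positive changes with the hairpins in order, so a negative sign was common. Only 1 type VI gene passed, with shUGDH-1, where 10.3% of all genes fell. COL6A1 had 162, 162 and 164 CPM in shNT, 153, 149 and 155 in shUGDH-1, and 153, 152 and 162 in shUGDH-2. The shUGDH-1 libraries lay below shNT, while 1 shUGDH-2 library reached the control range. COL6A1 fell by 0.094 on the log2 scale with shUGDH-1 (SE 0.033, edgeR adjusted p = 0.035) and its change with shUGDH-2 was -0.061 (95% interval -0.13 to 0.0045, adjusted p = 0.23). The shUGDH-1 call was lost with DESeq2 and without shNT replicate 2 or 3 or shUGDH-1 replicate 1 or 2, with adjusted p from 0.034 to 0.19. COL6A2, the adjacent gene, changed by -0.0066 and -0.090, and COL6A3 by -0.23 and -0.082.

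COL7A1, the chain of the anchoring fibrils that tie basement membrane to the tissue below, fell with both hairpins. It had 156, 157 and 153 CPM in shNT, 137, 138 and 141 in shUGDH-1, and 141, 146 and 142 in shUGDH-2, and every knockdown library lay below every shNT library. The log2 change was -0.17 with shUGDH-1 (SE 0.033, edgeR adjusted p = 9.9e-05) and -0.12 with shUGDH-2 (SE 0.033, adjusted p = 0.0081). Without shUGDH-2 replicate 1 the second adjusted p was 0.053.

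COL8A1, a short-chain collagen of open networks in vessel walls and the eye, rose with both hairpins. It had 83.1, 90.9 and 93.0 CPM in shNT, 126, 122 and 129 in shUGDH-1, and 106, 105 and 106 in shUGDH-2. The 3 groups did not overlap and shUGDH-1 was highest. The rise was 1.41-fold with shUGDH-1 (log2 change 0.50, SE 0.040, edgeR adjusted p = 1.4e-15) and 1.19-fold with shUGDH-2 (0.25, SE 0.041, adjusted p = 6.3e-06). The difference between the hairpins was -0.25 (SE 0.039, adjusted p = 1.9e-06). COL8A2, the partner chain, had 4 to 7 counts per library in shNT, 5 to 10 in shUGDH-1 and 3 to 5 in shUGDH-2 and was not tested; without the shUGDH-1 libraries its total would be 29, just under the limit.

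The FACIT collagens sit on the surface of fibrils. COL12A1 had 461, 454 and 461 CPM in shNT, 520, 509 and 504 in shUGDH-1, and 504, 496 and 492 in shUGDH-2, with every knockdown library above every shNT library. It rose 1.12-fold with shUGDH-1 (log2 change 0.16, SE 0.022, edgeR adjusted p = 5.2e-08) and 1.08-fold with shUGDH-2 (0.12, SE 0.022, adjusted p = 5.6e-05). COL9A2, a cartilage collagen chain, had 5.07, 3.91 and 3.83 CPM in shNT, 4.39, 6.85 and 5.32 in shUGDH-1, and 7.75, 5.78 and 6.14 in shUGDH-2. Its shUGDH-2 libraries lay above shNT, and its shUGDH-1 libraries overlapped both. It rose 1.52-fold with shUGDH-2 (log2 change 0.60, SE 0.17, adjusted p = 0.0079), a call that was lost without shUGDH-2 replicate 1 (adjusted p = 0.097). With shUGDH-1 the log2 change was 0.37 (adjusted p = 0.13), and 0.53 without shUGDH-1 replicate 1 (adjusted p = 0.039). COL16A1 stood at 6.22 ± 0.23, 4.72 ± 0.82 and 6.26 ± 1.22 CPM and did not pass (adjusted p = 0.064 with shUGDH-1).

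COL13A1, a transmembrane collagen of cell adhesions, had 170, 165 and 171 CPM in shNT, 214, 204 and 211 in shUGDH-1, and 177, 173 and 169 in shUGDH-2. The shUGDH-1 libraries stood apart, and shUGDH-2 overlapped shNT. It rose 1.24-fold with shUGDH-1 (log2 change 0.31, SE 0.031, edgeR adjusted p = 2.7e-12), while with shUGDH-2 the change was 0.039 with a 95% interval from -0.024 to 0.10. The difference between the hairpins was -0.27 (SE 0.031, adjusted p = 3.0e-10). COL17A1, the transmembrane collagen of hemidesmosomes, stood at 13.2 ± 1.85, 13.6 ± 1.65 and 12.5 ± 1.26 CPM and did not pass.

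COL18A1, a basement membrane proteoglycan whose end piece is endostatin, had 170, 176 and 181 CPM in shNT, 209, 204 and 204 in shUGDH-1, and 184, 192 and 189 in shUGDH-2. The 3 groups did not overlap, although shUGDH-2 came close to shNT. It rose 1.17-fold with shUGDH-1 (log2 change 0.23, SE 0.031, edgeR adjusted p = 2.3e-08) and 1.07-fold with shUGDH-2 (0.10, SE 0.031, adjusted p = 0.015), and the hairpins differed by -0.13 (SE 0.031, adjusted p = 0.0019). The shUGDH-2 call was lost with DESeq2 and without shNT replicate 1 or shUGDH-2 replicate 2, with adjusted p from 0.0089 to 0.11. SLC19A1 on the opposite strand overlaps 20.5% of the exon bases of COL18A1 and had 1 count in all 9 libraries. COL15A1, the related basement membrane collagen, stood at 1.24 ± 0.072 CPM in shNT, 0.701 ± 0.20 in shUGDH-1 and 1.10 ± 0.32 in shUGDH-2 and did not pass (adjusted p = 0.12 with shUGDH-1).

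**Figure D5:**
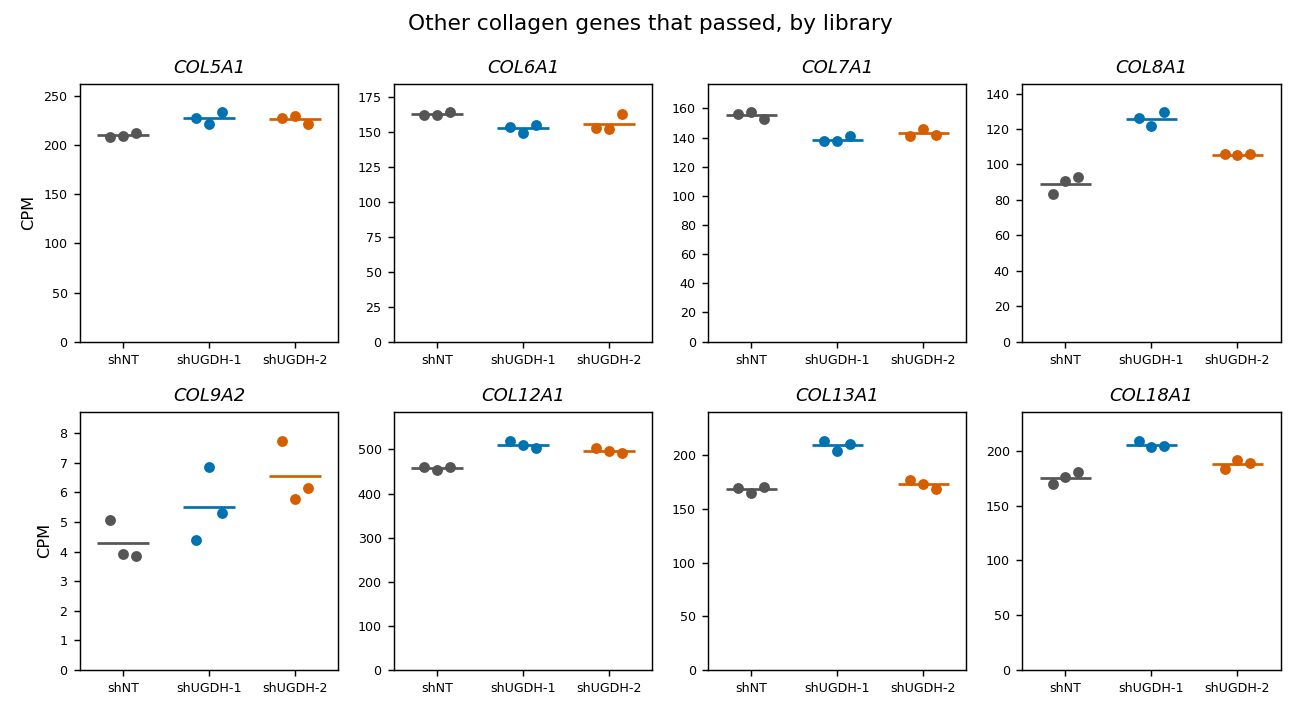
CPM in each library of the 8 other collagen genes that passed in at least 1 comparison, with bars at the group means and each axis starting at 0. COL8A1 and COL13A1 are highest in shUGDH-1, and COL7A1 lies below shNT in all 6 knockdown libraries.

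The authors' deposited tables gave 22 of these genes an adjusted p with each hairpin, and 10 were under 0.05 in each, where 16.2% of all genes with an adjusted p were with shUGDH-1 and 10.2% with shUGDH-2. All 10 were also called here in each case, and the sign was the same for 22 of 22. Both sets of values come from the same samples, so this match is no independent support. The calls made here and not in the authors' deposited tables were COL4A1 with shUGDH-1 (their adjusted p = 0.095) and COL4A4 with shUGDH-2 (their adjusted p = 0.15).

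RefSeq promoter windows of 300 bases, 250 before and 50 after a start site in GRCh38.p14, were found for 21 of the 26 genes; COL1A1, COL1A2, COL5A2, COL6A1 and COL8A1 had no entry. A GC box (GGGCGG or its reverse complement) occurred in the windows of 16 of the 21 genes and in 44.9% of all 35097 windows. CCAAT occurred for 6 genes (34.6% of all windows), TATAAA for 5 (11.5%), and the AP-1 heptamer TGACTCA for 0 (4.95%). Some genes had more than 1 window, 28 in all, which raises their chance of a match. The windows of COL4A1 and COL4A2 overlap, as do those of COL4A4 and COL4A3 and those of COL4A5 and COL4A6. The CCAAT sites shared by COL4A1 and COL4A2 and by COL4A5 and COL4A6 are therefore counted for both genes of the pair. So is the GC box shared by COL4A1 and COL4A2. The COL4A4 window held no match to any of these motifs. Median GC content was 66.0% over the collagen windows and 58.7% over all windows.

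Other genes of the collagen pathway were counted in lists by role, to be read against the same shares of all genes: 10.5% higher and 10.3% lower for the first hairpin, 8.04% and 6.81% for the second. Of 19 tested genes for chain modification and folding, 8 rose and 1 fell in the shUGDH-1 comparison, against 7 and 1 in the shUGDH-2 comparison. LEPRE1 and LEPREL1, prolyl 3-hydroxylases, rose 1.19-fold and 1.18-fold with shUGDH-1 and 1.12-fold and 1.19-fold with shUGDH-2. GLT25D2, a collagen galactosyltransferase, rose 1.45-fold and 1.29-fold, with 7.14, 9.44 and 6.90 CPM in shNT, 11.2, 11.8 and 10.7 in shUGDH-1 and 10.1, 10.3 and 9.86 in shUGDH-2. TMEM38B, an endoplasmic reticulum ion channel needed for collagen modification in bone, changed by -0.25 and -0.24 on the log2 scale.

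Of 12 export genes, 2 rose and 4 fell with shUGDH-1 (10.5% and 10.3% of all genes). With shUGDH-2 SAR1A fell by 0.21 on the log2 scale and no other export gene passed. TRAPPC2 (-0.31), SEC31A (-0.17) and SAR1B (-0.17), components of vesicle coats and tethers, fell with shUGDH-1, while their log2 changes with shUGDH-2 were -0.19, 0.061 and -0.12. SEC31A differed between the hairpins by 0.24 (edgeR adjusted p = 1.9e-11).

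Of 13 processing and cross-linking genes, 4 passed in the first comparison and 5 in the second, and each of those rose (10.5% and 8.04% of all genes rose). PXDN, the peroxidase that cross-links type IV collagen, had 255, 245 and 257 CPM in shNT, 351, 347 and 351 in shUGDH-1, and 303, 313 and 306 in shUGDH-2. The 3 groups did not overlap, and the rise was 1.39-fold and 1.22-fold (edgeR adjusted p = 3.9e-23 and 2.0e-13). ADAMTS14, a procollagen N-proteinase, rose 1.51-fold and 1.37-fold, LOXL2, a lysyl oxidase, 1.18-fold and 1.19-fold, and TGM2, a transglutaminase, 1.04-fold and 1.10-fold.

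Of 6 receptor genes, 2 rose and 1 fell in the first comparison and 3 rose and 1 fell in the second. DDR1, a collagen-binding receptor tyrosine kinase, rose 1.22-fold and 1.17-fold, and MRC2, an uptake receptor for collagen fragments, rose 1.19-fold and 1.10-fold. ITGB1, the shared beta chain of the collagen-binding integrins, changed by -0.095 and -0.094 on the log2 scale and passed with both hairpins. ITGA1 passed with shUGDH-2 only (1.23-fold). Of 11 degradation genes, 5 were higher and 4 lower in the first comparison and 3 higher and 3 lower in the second, beside 10.5%, 10.3%, 8.04% and 6.81% of all genes in that order. MMP15, a membrane-bound metalloprotease, rose 1.41-fold and 1.39-fold, while TIMP1, a metalloprotease inhibitor, changed by -0.19 and -0.15 and PLAU, the urokinase protease, by -0.18 and -0.069, all past the threshold. TIMP3, another inhibitor, had 29.3 to 32.2 CPM in shNT, 43.6 to 45.4 in shUGDH-1 and no more than 19.3 in shUGDH-2. Like COL1A2 it lay above the control with shUGDH-1 (1.44-fold, edgeR adjusted p = 1.3e-09) and below it with shUGDH-2 (log2 change -0.78, adjusted p = 1.0e-12).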

How the data were processed

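RNA from 9 MDA-MB-231 cultures was sequenced as read pairs from mRNA libraries, per the labels' protocols. The authors deposited a table of raw read counts per gene, and the submitters' processing notes name hg19, STAR, DESeq and DESeq2; which annotation, counting tool, versions and strand setting were used is not given in the sources used here. Per the file headers, the authors' deposited tables for each hairpin against shNT give a mean normalised signal, a log2 fold change and standard error, and raw and adjusted p-values. Of 23710 entries, 28 with symbols turned into dates (0.232% of counts) stayed in the fit.

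Counts were analysed in R 4.3.3 with edgeR 4.0.16 (robust quasi-likelihood test, TMM scaling, filterByExpr, a mean per group over all 9 libraries, 6 residual degrees of freedom). This tested 12546 genes, which hold 99.9% of counts, with Benjamini-Hochberg adjustment over all of them and a threshold of 0.05. Fold changes carry standard errors or 95% intervals from that fit. The fit shares information on spread across genes, so these rest on more than the 6 residual degrees of freedom. Libraries of 9249738 to 13328002 counts set the precision. Transcript lengths came from GENCODE 29 and promoter sequences from RefSeq (GRCh38.p14), matched by symbol. DESeq2 1.42.0, other scaling and filters, other fits and leaving out each library were alternatives. Genes described per library were UGDH and each collagen gene that passed in at least 1 comparison; from each pathway list up to 4 genes of 1 CPM or more were named, those passing with both hairpins first, then by size of change. Members, lists and tests were chosen with earlier results of these data known.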

Additional observations from a re-analysis of the deposited data

Results flagged for a closer look

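The direct test between the hairpins (edgeR quasi-likelihood test, adjusted p under 0.05) found 6 collagen genes whose response to shUGDH-2 differed from that to shUGDH-1, 1 higher and 5 lower, beside 5.36% and 5.51% of all genes tested. On the log2 scale, shUGDH-2 minus shUGDH-1, the difference was -1.60 for COL1A2, -1.20 for COL4A4, -0.27 for COL13A1, -0.25 for COL8A1, -0.13 for COL18A1 and 0.32 for COL1A1. The COL1A1 call was lost in 6 of 15 alternatives (adjusted p from 0.032 to 0.22), and the other 5 calls held in all 15. UGDH itself differed between the hairpins by -0.091 (95% interval -0.34 to 0.16), and its level was 7.65 ± 0.37 CPM with shUGDH-1 and 7.17 ± 0.80 with shUGDH-2 (SD, n = 3). ESAM, from the endothelial list, differed by -0.56.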

How the results depend on the processing

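Of 28 collagen results that passed, 21 kept their direction and call under every alternative that gave a p-value, 7 lost the call under at least 1, and 0 reversed. DESeq2 made fewer calls: 818 higher and 725 lower genes for the first hairpin, 544 and 417 for the second, and 391 and 360 between the hairpins. Among collagens it gave 1 lower with shUGDH-1, 5 higher and 1 lower with shUGDH-2, 4 higher with both, and 0 higher with shUGDH-2 than with shUGDH-1 (1 at an unadjusted p under 0.05, 3 by edgeR). It gave no adjusted p for 12 members in the shUGDH-2 comparison, 4 of them called by edgeR (COL9A2, COL1A1, COL4A4 and COL1A2), which accounts for part of its lower count.

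Leaving out each library in turn gave 8 to 9 collagen genes higher with shUGDH-1, 7 to 9 higher with shUGDH-2 and 5 to 7 higher with both. It gave 1 to 2 lower with shUGDH-1, 1 to 2 lower with shUGDH-2, 0 to 1 lower with both, and 0 to 1 higher with shUGDH-2 than with shUGDH-1. The median log2 change with shUGDH-2 ran from 0.025 to 0.11 (0.11 without shNT replicate 2). Over all genes, 1042 to 1342 were higher and 943 to 1257 lower with shUGDH-1, and 756 to 1031 were higher with shUGDH-2. Between the hairpins, 488 to 830 were higher with shUGDH-2 than with shUGDH-1. The number lower with shUGDH-2 was 496 to 815, the lowest without shUGDH-2 replicate 1, and the cause was not tested.

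Same-numbered libraries did not deviate together (correlations -0.041 to 0.078, 0 of 9 over 0.1), so replicate numbers were not taken as pairs. With the replicate number as a block, 9 collagen genes rose and 2 fell with each hairpin, and 1298 and 993 genes rose overall. COL4A6, the lowest gene tested, had a standard error of 0.51 and 0.44 on the log2 scale with the hairpins in order, against 0.022 for COL12A1 with each.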

Other observations

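Below the limit of 30 counts, COL9A3, a partner chain of COL9A2, had 2, 1 and 2 counts in shNT, 5, 3 and 2 in shUGDH-1, and 0, 0 and 0 in shUGDH-2. COL3A1, a fibrillar collagen whose gene lies next to COL5A2, had 1, 3 and 0 counts in shNT, 1, 2 and 1 in shUGDH-1, and 6, 3 and 2 in shUGDH-2.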
